A study of Homo sapiens with 6 samples.

Results

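The genes of cholesterol and fatty acid synthesis were followed in SK-Hep-1 cells after knockdown of the long non-coding RNA *RAB30-DT*. They are 34 of the 62700 genes in the expression tables. They were taken by symbol from the SREBP pathway (5 regulators), the steps from acetyl-CoA to farnesyl diphosphate (7 genes), the enzymes of squalene and sterol synthesis (11), sterol transport (2) and the synthesis, desaturation, elongation and activation of fatty acids (9). The rule uses symbols and no expression value, but the members were chosen with earlier results of these data known.

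RNA–Seq covered 3 libraries titled as carrying a control shRNA (shControl) and 3 titled shRAB30-DT, all from SK-Hep-1, a human liver tumor line that the study describes as endothelial-derived. The study made its stable cells by lentiviral transduction and puromycin selection, with control vectors prepared alongside, while the genotype label of the control libraries reads WT. The labels thus leave it unclear whether the control cells went through the same transduction and selection. The labels name neither an age nor a treatment other than the shRNA, and they do not say whether the replicates were separate cultures, so the p-values measure the spread between these libraries only.

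The values are TPM, which express a transcript's abundance per length as a part of a constant sum per library. They hold no read number, so the depth of the libraries is unknown and counting error cannot be stated. Between 20127 and 21675 genes were above 0 TPM in a library. *RAB30-DT* itself was at 18.16, 11.51 and 13.91 TPM in control replicates 1, 2 and 3, and at 11.94, 10.85 and 6.5 TPM in the knockdown replicates, a difference of −0.55 on the log2 scale (standard error 0.27, limma adjusted p = 0.355). The groups overlapped for the targeted RNA, and the difference was not past the test, so "knockdown" below is the name of the label. The study reports by qPCR that the knockdown worked in SK-Hep-1 cells, a measure that these libraries do not hold. The hepatocyte genes *ALB*, *HNF4A* and *CYP3A4* were listed at 0 in all 6 libraries, and *AFP* was between 0.41 and 1.63 TPM. The endothelial genes *PECAM1* and *CDH5* reached at most 0.01 and 0.06 TPM, *ERG* was listed at 0, *VWF* lay between 0.07 and 0.36 TPM, and the mesenchymal gene *VIM* was at 3793 TPM or more throughout.

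Cells make cholesterol from acetyl-CoA through mevalonate, farnesyl diphosphate, squalene and lanosterol, and they make fatty acids from the same acetyl-CoA. Most of these enzymes are switched on by SREBP transcription factors. These are held in the endoplasmic reticulum by SCAP and the INSIG proteins while sterols are plentiful, and they are carried to the Golgi and cut free when sterols run low. Another sensor, the LXR receptors, responds to oxysterols in the opposite state, when sterols are plentiful, and induces the cholesterol exporter *ABCA1* and also *SREBF1*. Hepatocytes are a main site of both pathways in the body, and growing tumor cells use them for membranes.

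SREBP proteins bind sterol regulatory elements close to the start of their targets, usually together with the factors NF-Y and Sp1. Windows of 300 bases around RefSeq gene starts (GRCh38.p14, 250 before to 50 after) were found for 30 of the 34 members. *ACAT2*, *FASN*, *FDFT1* and *SQLE* had none. On both strands, CCAAT, the NF-Y box, was in a window of 22 of 30 members (73.3%) and of 39.7% of all genes with windows. GGGCGG, an Sp1 box, was in 29 of 30 (96.7%) and in 48.3% of all genes. The strict element TCACNCCAC was in 1 member only, *SREBF2* (3.33%, against 1.39% of all genes). All genes here are the 27305 with a window, whether or not these cells express them. The shares among expressed genes were not computed. These matches are of letters and were not tested for binding, and the motifs were chosen with the expression results known. The stretches that hold the boxes are given for *SREBF2* as the one with the sterol element, and for 5 enzymes whose values come below. They are written 5′ to 3′ on the strand of the gene, with CCAAT, its reverse complement ATTGG and the sterol element in capitals. Distances are from the RefSeq starts, which can differ from the GENCODE gene positions used for the expression values. The GENCODE gene of *SC5D* begins at 121292681, so its stretch lies inside that gene. Those of *HMGCS1* and *FDPS* reach into their GENCODE genes. *SREBF2* lies at chr22:41832960-41833015 (plus strand, 145 to 90 bases before the start), *HMGCS1* at chr5:43313496-43313579 (minus strand, 167 to 84 before), *FDPS* at chr1:155308678-155308831 (plus strand, 188 to 35 before), *MSMO1* at chr4:165327472-165327651 (plus strand, 197 to 18 before), *SC5D* at chr11:121292703-121292731 (plus strand, 68 to 40 before) and *SCD* at chr10:100346992-100347063 (plus strand, 241 to 170 before).
SREBF2: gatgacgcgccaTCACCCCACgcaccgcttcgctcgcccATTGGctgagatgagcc
HMGCS1: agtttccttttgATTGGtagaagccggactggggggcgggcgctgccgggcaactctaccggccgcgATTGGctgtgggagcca
FDPS: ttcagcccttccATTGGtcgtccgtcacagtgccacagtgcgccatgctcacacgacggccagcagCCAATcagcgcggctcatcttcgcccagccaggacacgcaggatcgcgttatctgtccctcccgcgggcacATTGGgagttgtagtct
MSMO1: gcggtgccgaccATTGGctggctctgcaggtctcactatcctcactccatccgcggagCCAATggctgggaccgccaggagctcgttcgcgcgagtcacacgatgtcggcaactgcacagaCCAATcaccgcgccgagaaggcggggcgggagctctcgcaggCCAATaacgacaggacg
SC5D: cgccggtcgctgATTGGctggccgctcca
SCD: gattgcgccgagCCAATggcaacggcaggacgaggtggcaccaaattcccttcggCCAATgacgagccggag
*SREBF2* has 1 sterol element and 1 NF-Y box in its stretch. *MSMO1* has 4 NF-Y boxes, *FDPS* has 3, *HMGCS1* and *SCD* have 2 each, and *SC5D* has 1.

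Across the pathway, 29 of the 34 members had a positive log2 fold change in knockdown against control and 5 a negative one, with a median of 0.49. Among all 14020 genes tested, 46.3% were positive and the median was −0.04. One member passed the test. *HMGCS1*, the enzyme that makes HMG-CoA, rose 3.52-fold in mean TPM. The 3 control and 3 knockdown values did not overlap in 14 members (41.2%), each time with the knockdown higher, and in no member with the knockdown lower. The same held for 9.89% of all genes tested in the higher and 13.4% in the lower direction. One of the 14, *ABCA1*, reached the mean of 1 TPM needed for testing only through its knockdown libraries. Among the 33 members whose control mean alone reached it, 28 were positive and 13 apart, and the median was 0.47. Because the members were chosen with earlier results known, these shares describe the list and are not a test of it.

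The share called is small beside these counts. *HMGCS1* is 2.94% of the members at an adjusted p under 0.05 (limma, Benjamini–Hochberg over all genes tested), where 1.04% of all genes were called in either direction and 0.371% as higher. At an unadjusted p under 0.05, 12 members were higher (*HMGCS1*, *MVK*, *FDPS*, *NSDHL*, *HSD17B7*, *SC5D*, *DHCR7*, *ABCA1*, *ACSS2*, *FASN*, *SCD* and *ACSL3*), where 7.06% of all genes were, and *PMVK* was lower, where 9.7% of all genes were. With each library's trend with GC content removed, 5 members were called, *SC5D*, *HMGCS1*, *ACSL3*, *HSD17B7* and *ABCA1*, all higher, against 3.01% of all genes called higher, and the median over the members was 0.46. Without *ABCA1*, these counts of 12 and 5 were 11 and 4.

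**Figure D1:**
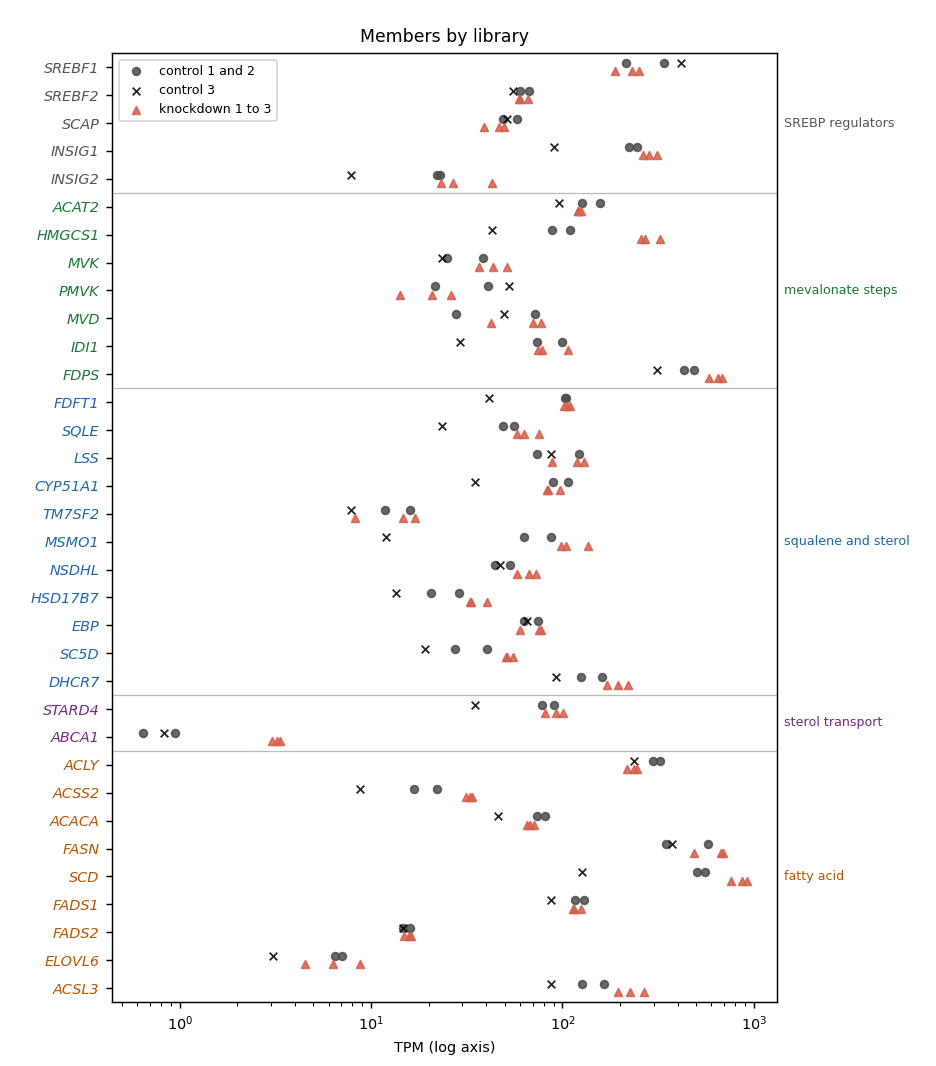
TPM of each of the 34 members in every library, on a log axis, in the order of the pathway. Grey circles are control replicates 1 and 2, black crosses control replicate 3 and red triangles the 3 knockdown replicates. Control replicate 3 is the lowest of the 6 libraries in 23 members.

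One control library bears on most of these values. Control replicate 3 was the lowest of the 6 libraries in 23 of 34 members (67.6%), where it was so in 32.2% of all genes tested. Its log2 level minus the mean of control replicates 1 and 2 had a median of −0.67 over the members and −0.14 over all genes. The members summed to 3897, 4275 and 2687 TPM in control replicates 1, 2 and 3 and to 4991, 5198 and 5059 TPM in the knockdown replicates. The knockdown sums thus lay close together and above all 3 controls. The SD of the log2 values had a median of 0.48 in control and 0.17 in knockdown over the members, against 0.34 and 0.21 over all genes.

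Without control replicate 3, 23 members were positive and 11 negative, and the median was 0.25, with −0.09 over all genes. *HMGCS1* was then still the only member called, and 0.472% of all genes were called higher. In the same 5 libraries, 14 members lay above both remaining controls in every knockdown replicate, and 3 lay below (*ACAT2*, *ACLY* and *ACACA*), where 13.1% and 22.5% of all genes did. *ABCA1*, which was tested only through its knockdown libraries, is one of the 14. The libraries also differed in their trend with base composition. Across the 14020 genes, Spearman's rho between GC content and a library's deviation from the gene's mean was −0.606, 0.294 and 0.489 in control and −0.524, 0.0162 and 0.335 in knockdown replicates. The part of this trend in the low values of control replicate 3 was not tested.

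**Figure D2:**
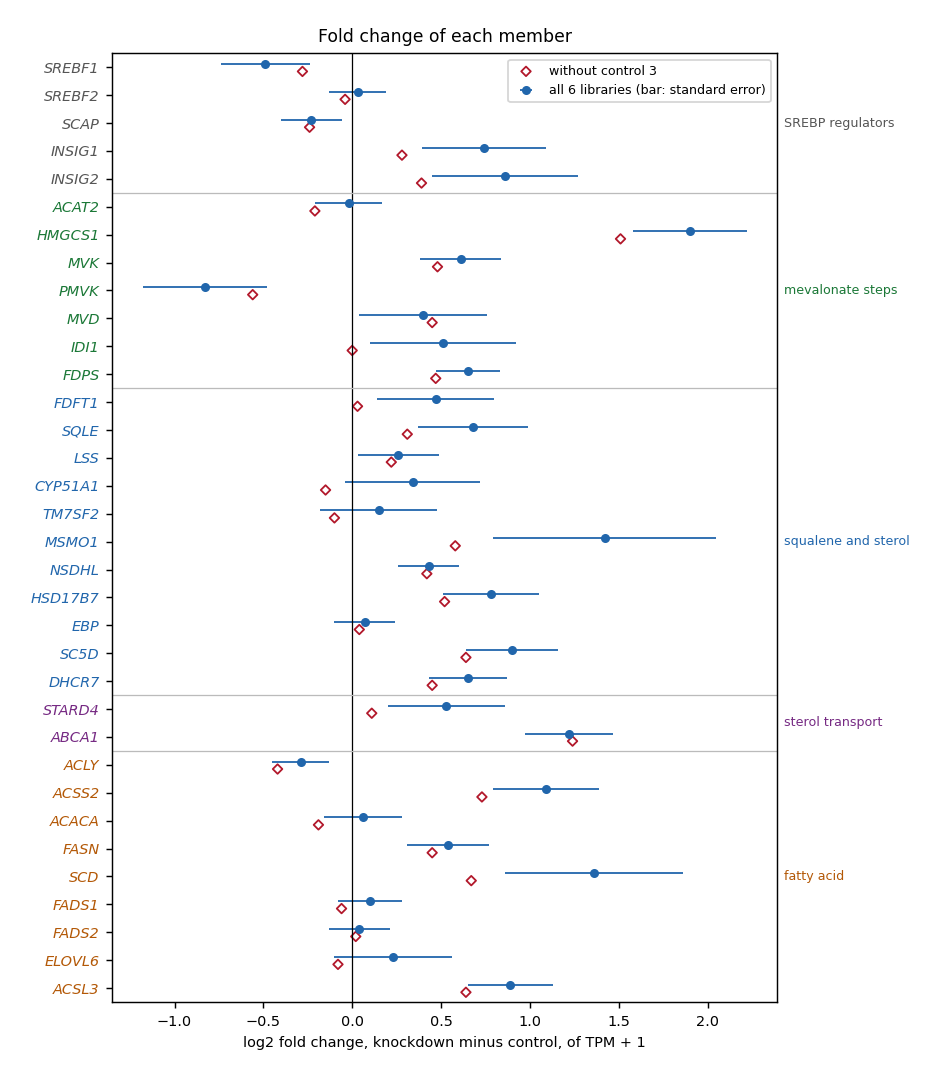
Log2 fold change of each member, knockdown minus control, on the log2(TPM + 1) scale. Blue circles use all 6 libraries, with bars of 1 standard error, and red diamonds leave out control replicate 3. *HMGCS1* stays at 1.51 and *ABCA1* at 1.24 without that library, while *SCD* moves from 1.36 to 0.67 and *MSMO1* from 1.42 to 0.58.

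Among the regulators, the genes of the INSIG anchors had groups without overlap, the knockdown higher, and those of the SREBP precursors and of SCAP overlapped. The INSIG genes are 40.0% of the regulators, where 9.89% of all genes tested were apart in this direction. No regulator passed the test, and their median was 0.03. *INSIG1*, an SREBP target that closes the feedback loop, was at 245.73, 223.85 and 89.87 TPM in control and 310.77, 284.12 and 262.94 TPM in knockdown replicates. *INSIG2*, the other anchor, was at 22.2, 23.04 and 7.82 TPM in control and 42.96, 26.87 and 23.15 TPM in knockdown. Both sets were apart, although for *INSIG2* the lowest knockdown value stood just above the highest control. Their log2 fold changes of 0.74 (standard error 0.35, adjusted p = 0.332 from limma) and 0.86 (0.41, adjusted p = 0.337) were 0.28 and 0.39 without control replicate 3, the lowest library for both genes.

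*SREBF1*, whose product favours fatty acid genes, was at 215.02, 337.49 and 415.61 TPM in control and 187.68, 252.06 and 229.97 TPM in knockdown replicates. Here control replicate 3 was the highest library and the groups overlapped, with a log2 fold change of −0.49 (standard error 0.25, adjusted p = 0.361 from limma), which was −0.28 without control replicate 3 and −0.75 without control replicate 1. *SREBF2*, whose product favours sterol genes and whose promoter stretch holds the sterol element, was level at 60.8 ± 6.02 TPM in control and 61.9 ± 3.86 TPM in knockdown (SD, n = 3 each), and its log2 value of 0.03 turned to −0.04 without control replicate 3. *SCAP*, the escort protein, was at −0.23 (adjusted p = 0.537 from limma) with overlapping groups.

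The early steps of the route held the one member that passed the test and also the member with the most negative value. Of the 7 genes from acetyl-CoA to farnesyl diphosphate, 5 were positive and 2 negative, with a median of 0.51 and of 0.45 without control replicate 3. *HMGCS1* (ENSG00000112972.15, minus strand of chromosome 5, 43287470 to 43313512) condenses acetoacetyl-CoA with acetyl-CoA. It was at 109.32, 88.19 and 42.77 TPM in control and 321.33, 269.47 and 256.07 TPM in knockdown replicates. The lowest knockdown library was far above the highest control library, so the gap does not rest on control replicate 3.

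Mean *HMGCS1* was 80.1 ± 34.01 TPM in control and 282.3 ± 34.5 TPM in knockdown (SD, n = 3 each), which gave 1.90 on the log2 scale (standard error 0.32, limma adjusted p = 0.0417). An exact two-sided permutation test gave p = 0.1, the smallest that 3 libraries against 3 allow. Leaving out any 1 library gave values from 1.51 to 2.17. The call is near its threshold. It was lost with no filter on low genes (adjusted p = 0.133 from limma), without control replicate 2 (0.144) and without knockdown replicate 1, 2 or 3 (0.14, 0.164 and 0.16).

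*FDPS*, which makes farnesyl diphosphate, was the other gene of these steps without overlap, at 431.39, 489.0 and 313.61 TPM in control and 583.23, 650.29 and 677.57 TPM in knockdown. Its log2 fold change of 0.65 (standard error 0.18) did not pass the test (adjusted p = 0.13 from limma). Every knockdown library was above every control by a margin larger than the gap between control replicates 1 and 2. *PMVK*, phosphomevalonate kinase, stood at the opposite end of this stretch of the route with −0.83 (standard error 0.35, adjusted p = 0.279 from limma), or between −1.18 and −0.56 with a library left out. It was at 21.63, 40.65 and 52.29 TPM in control and 14.16, 20.77 and 26.08 TPM in knockdown replicates, with overlap, since knockdown replicate 3 exceeded control replicate 1.

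The kinase before it and the decarboxylase after it did not share the negative sign. *MVK*, mevalonate kinase, was at 0.61 on the log2 scale (limma adjusted p = 0.247) and *MVD*, the decarboxylase, 0.40 (adjusted p = 0.612), both with overlap, and *MVD* was at 0.04 without control replicate 1. *IDI1*, the isomerase of isopentenyl diphosphate, was at 0.51 with all 6 libraries and at 0.00 without control replicate 3. *ACAT2*, the thiolase at the entry, was at −0.02.

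All 11 squalene and sterol enzymes had a positive value, from 0.07 for *EBP*, a sterol isomerase, to 1.42 for *MSMO1*, a sterol methyl oxidase, with a median of 0.47. None passed the test, 4 had an unadjusted p under 0.05 (36.4%, against 7.06% of all genes in this direction), and in 6 the groups did not overlap (54.5%, against 9.89%). These 6 were *SQLE*, *MSMO1*, *NSDHL*, *HSD17B7*, *SC5D* and *DHCR7*. The median was 0.31 without control replicate 3, and 9 of the 11 stayed positive.

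*MSMO1* had the widest spread of these genes. It was at 87.19, 63.15 and 11.94 TPM in control and 135.52, 97.76 and 103.77 TPM in knockdown replicates. The groups did not overlap, but control replicate 3 was far below the other controls, and the log2 fold change of 1.42 (standard error 0.63, adjusted p = 0.303 from limma) was 0.58 without it.

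*SC5D* (ENSG00000109929.10), the lathosterol desaturase, was tighter, at 40.4, 27.3 and 19.04 TPM in control and 55.07, 51.21 and 50.78 TPM in knockdown. The knockdown libraries lay close together and above all controls, with a log2 fold change of 0.90 (standard error 0.26, adjusted p = 0.149 from limma) and 0.64 without control replicate 3. *HSD17B7*, a keto-sterol reductase, was at 28.69, 20.65 and 13.55 TPM against 40.55, 33.15 and 32.7 TPM, and *DHCR7*, a reductase of the final steps, at 125.71, 160.36 and 92.79 TPM against 169.95, 194.0 and 220.78 TPM. Both were apart by a small margin, with log2 fold changes of 0.78 (adjusted p = 0.2 from limma) and 0.65 (adjusted p = 0.193).

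*SQLE*, the squalene epoxidase, was at 55.91, 48.8 and 23.57 TPM in control and 75.77, 62.89 and 57.87 TPM in knockdown replicates. *NSDHL*, a sterol dehydrogenase, was at 44.3, 53.17 and 47.44 TPM in control and 57.58, 66.48 and 73.15 TPM in knockdown. *SQLE* was apart by a narrow margin, and for *NSDHL* control replicate 3 was not the lowest library. The log2 fold change of *NSDHL* was accordingly 0.43 with that library and 0.42 without it (adjusted p = 0.248 from limma with all 6), while that of *SQLE* went from 0.68 to 0.31.

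The 5 enzymes with overlap were *FDFT1*, *LSS*, *CYP51A1*, *TM7SF2* and *EBP*. *FDFT1*, squalene synthase, was at 103.88 and 102.77 TPM in control replicates 1 and 2 and at 102.45, 109.09 and 106.09 TPM in knockdown, but at 41.27 TPM in control replicate 3. Its log2 fold change of 0.47 was thus 0.03 without that library. *CYP51A1*, the lanosterol demethylase, went from 0.34 to −0.15 and *TM7SF2*, a sterol reductase, from 0.15 to −0.10. *LSS*, lanosterol synthase, was at 0.26 and 0.22, but at 0.10 without control replicate 1. *EBP*, the member nearest to 0 here, was at 63.02, 74.48 and 64.92 TPM in control and 59.88, 77.59 and 75.53 TPM in knockdown.

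**Figure D3:**
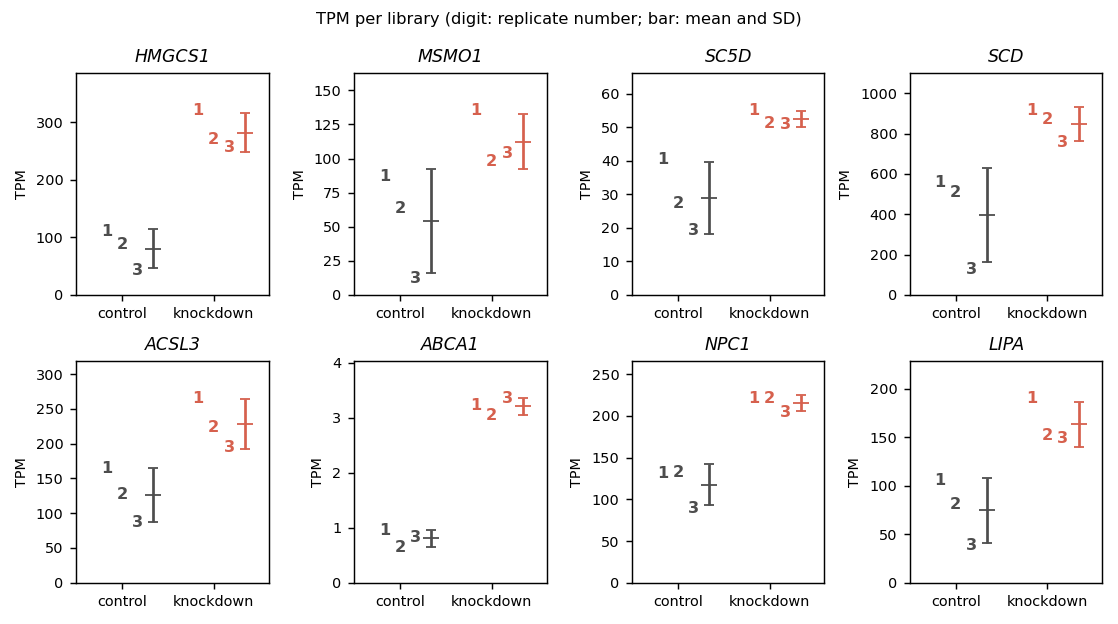
TPM per library of 6 members and of the lysosomal cholesterol genes *NPC1* and *LIPA*, each on its own linear axis from 0. Digits are replicate numbers, and the bars give the mean and SD of the 3 libraries. All 8 genes are without overlap, and control replicate 3 is the lowest library in each except *ABCA1*.

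The pair of sterol transport genes differed in how much they rested on one library. *ABCA1* (ENSG00000165029.17, minus strand of chromosome 9, 104781006 to 104928155) exports cholesterol and is an LXR target. It was at 0.95, 0.64 and 0.83 TPM in control and 3.23, 3.05 and 3.36 TPM in knockdown replicates, a mean of 0.807 ± 0.156 against 3.21 ± 0.156 TPM (SD, n = 3 each). The knockdown mean was 3.98 times the control mean and both groups were tight, but the level was the lowest of all members.

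The log2 fold change of *ABCA1* was 1.22 on the log2(TPM + 1) scale (standard error 0.25, adjusted p = 0.0685 from limma), just outside the threshold, and 1.24 without control replicate 3. At this level the scale matters. It was 1.88 with a pseudocount of 0.1 and 0.50 with one of 5. *STARD4*, a carrier of cholesterol inside the cell, was at 90.7, 78.56 and 35.01 TPM in control and 101.15, 93.03 and 81.05 TPM in knockdown, with overlap, and its value of 0.53 was 0.11 without control replicate 3.

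Of the other genes tied to LXR, *SREBF1* had the negative value given above. *NR1H2* and *NR1H3*, which encode the receptors, were at −0.09 and 0.09 on the log2 scale, and *MYLIP*, a further LXR target, was at 0.20, all with overlap. *ABCG1*, the partner exporter, was listed at 0 in all 6 libraries. *ABCA1* was the one gene of these that had separate groups, and its control mean was below the 1 TPM needed for testing. A part of LXR in its values was not tested.

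In the fatty acid group, *SCD*, *ACSS2* and *ACSL3* were apart with the knockdown higher (33.3%, against 9.89% of all genes tested). The other 6 members overlapped. No member passed the test. Of 9 members, 8 were positive with a median of 0.23, and without control replicate 3 the count was 5 positive and 4 negative with a median of 0.02. *SCD* (ENSG00000099194.6, plus strand of chromosome 10, 100347233 to 100364826) makes monounsaturated fatty acids. It was at 555.57, 505.73 and 126.66 TPM in control and 916.91, 871.85 and 755.95 TPM in knockdown replicates. It was the most abundant member in knockdown cells, and control replicate 3 held less of it than any other library by a wide margin.

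*SCD* was at 1.36 on the log2 scale (standard error 0.50, limma adjusted p = 0.227) and at 0.67 without control replicate 3. *ACSS2*, which makes acetyl-CoA from acetate, was at 16.8, 22.02 and 8.73 TPM in control and 33.76, 32.9 and 31.38 TPM in knockdown, a log2 fold change of 1.09 (standard error 0.30, adjusted p = 0.134 from limma) and 0.73 without that library. *ACSL3*, which activates long-chain fatty acids, was at 164.65, 126.6 and 86.69 TPM in control and 265.57, 223.98 and 194.58 TPM in knockdown. Its groups were clear of each other, at 0.89 on the log2 scale (standard error 0.24, limma adjusted p = 0.129), or 0.64 without control replicate 3.

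*ACLY*, which makes acetyl-CoA from citrate and so feeds the same pool as *ACSS2*, was the only negative member of this group. It was at 298.92, 324.03 and 236.03 TPM in control and 216.57, 246.36 and 236.08 TPM in knockdown, a log2 fold change of −0.29 with all libraries and −0.42 without control replicate 3, with an adjusted p of 0.407 and 0.177 from limma. *FASN*, fatty acid synthase, was at 346.35, 577.07 and 371.53 TPM in control and 488.72, 676.46 and 691.93 TPM in knockdown, with overlap and a log2 fold change of 0.54 (adjusted p = 0.28). *ACACA*, the acetyl-CoA carboxylase before it, was at 0.06, *ELOVL6*, an elongase, at 0.23, and *FADS1* and *FADS2*, desaturases of polyunsaturated fatty acids, at 0.10 and 0.04. All of these overlapped, and *ACACA*, *ELOVL6* and *FADS1* turned negative without control replicate 3, at −0.19, −0.08 and −0.06.

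**Figure D4:**
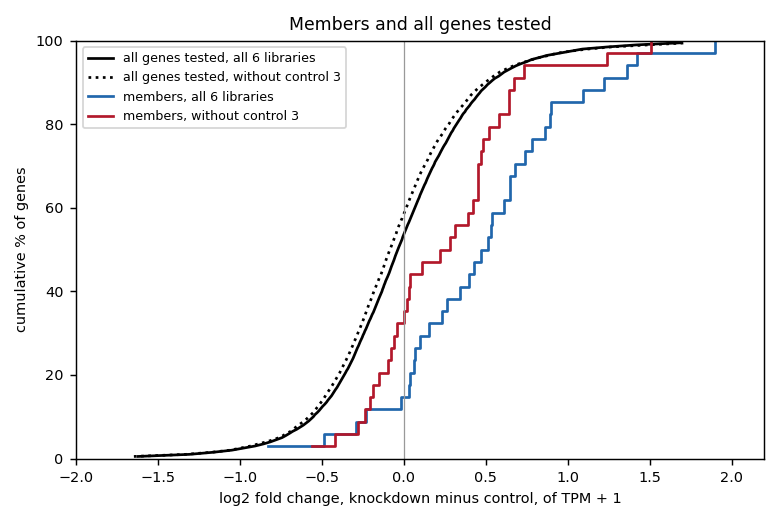
Cumulative share of genes by log2 fold change, knockdown minus control. Black lines are all genes tested with all 6 libraries (solid) and without control replicate 3 (dotted), and coloured steps are the 34 members. The curve of the members lies to the right of that of all genes, with medians of 0.49 against −0.04, and of 0.25 against −0.09 without that library.

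Summed levels, which TPM allow because they are per length, also differed between the groups of genes. The 7 genes up to farnesyl diphosphate summed to 870.85, 928.0 and 606.94 TPM in control and 1230.1, 1252.5 and 1283.5 TPM in knockdown. The 11 squalene and sterol enzymes summed to 741.02, 777.45 and 443.89 TPM in control and 890.37, 908.85 and 950.34 TPM in knockdown, and the 9 fatty acid genes to 1601.1, 1781.4 and 980.91 TPM against 2125.6, 2264.0 and 2116.4 TPM. In these 3 sums every knockdown library was above every control. The fatty acid sum owed this to *SCD*, as without it the values were 1045.5, 1275.7 and 854.25 TPM against 1208.6, 1392.2 and 1360.5 TPM and overlapped. The other sums stayed apart without *HMGCS1* and without *MSMO1*, the members with the highest fold change. The sterol transport genes, at 91.65, 79.2 and 35.84 TPM against 104.38, 96.08 and 84.41 TPM, overlapped. The regulators, at 592.2, 709.27 and 619.61 TPM against 640.37, 676.2 and 624.67 TPM, did so too.

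By mean level, 24 of the 34 members took another place in knockdown than in control cells, 6 of them by 4 places or more (*HMGCS1*, *MSMO1*, *PMVK*, *SREBF1*, *SREBF2* and *SCAP*). In control cells *FASN*, *FDPS* and *SCD* led with means of 431.7, 411.3 and 396.0 TPM, which lay within the SD of each other. In knockdown cells *SCD* led with 848.2 ± 83.04 TPM, above *FDPS* at 637.0 ± 48.6 TPM and *FASN* at 619.0 ± 113.1 TPM (SD, n = 3 each), the last pair again within their spread. *HMGCS1* was in place 13 in control and in place 5 in knockdown cells, next to *INSIG1* at 285.9 TPM. *MSMO1* was in place 20 and then 12, *PMVK* in 25 and then 30, and *SREBF1* in 4 and then 8. *ELOVL6* and *ABCA1* were the lowest in both.

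A further 41 genes of the same pathways, listed by role with earlier results of these data known, served as a frame. Of these, 38 were tested, 20 were positive and 18 negative, the median was 0.02, and none passed the test in limma (4 higher and 2 lower at an unadjusted p under 0.05, or 10.5% and 5.26%, against 7.06% and 9.7% of all genes). Groups were apart in 5 in the higher and 3 in the lower direction, or 13.2% and 7.89%, against 9.89% and 13.4% of all genes. Both shares are near those of all genes, so the counts are no result about these 38. The higher ones included *NPC1*, *NPC2* and *LIPA*, which handle cholesterol in the lysosome. *NPC1*, the lysosomal cholesterol exporter, was at 131.28, 132.71 and 89.26 TPM in control and 221.3, 220.33 and 204.43 TPM in knockdown, a log2 fold change of 0.89 (standard error 0.18, adjusted p = 0.0719 from limma) and 0.70 without control replicate 3.

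*NPC2*, its soluble partner, was at 204.04, 186.06 and 120.71 TPM against 271.62, 265.56 and 257.38 TPM, at 0.67 on the log2 scale (limma adjusted p = 0.16). *LIPA*, the lysosomal acid lipase, was at 105.12, 80.24 and 38.66 TPM against 190.22, 151.7 and 148.49 TPM, with 1.22 (standard error 0.34, adjusted p = 0.129). In all 3 the knockdown libraries lay well above the controls, and control replicate 3 was the lowest. *ERLIN2*, an endoplasmic reticulum protein that takes part in sterol control, and *ERG28*, a scaffold of sterol enzymes, were apart with log2 fold changes of 0.43 and 0.39, or 0.33 and 0.15 without control replicate 3.

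The 3 genes that were apart and lower encode lipid enzymes outside the members. *SCD5*, another stearoyl-CoA desaturase, was at 25.07, 26.94 and 24.97 TPM in control and 20.5, 18.28 and 18.63 TPM in knockdown, a log2 value of −0.41 (limma adjusted p = 0.264), opposite in sign to *SCD*. *FADS3* was at −0.28 and *ACSL1* at −0.19, the latter opposite in sign to *ACSL3*. The proteases that release SREBP, *MBTPS1* and *MBTPS2*, were at 0.00 and −0.11 with overlap.

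Some members share exons with other genes, and whether the counting used strand is not stated. *ACAT2* overlaps *TCP1* on the opposite strand by 454 bases (mean 261 TPM), *MVK* overlaps *MMAB* by 225, *FADS1* overlaps *FADS2* by 490, *ACLY* overlaps a long non-coding RNA by 156 that reached 140 TPM in 1 library, and *FDPS* overlaps *RUSC1-AS1* by 693 (mean 10.6 TPM). *SREBF1* overlaps *RAI1* on the opposite strand by 556 bases (mean 63.1 TPM). On the same strand, *TM7SF2* overlaps *VPS51* by 18 bases (mean 117 TPM) and *FADS2* overlaps *FEN1* by 49 (mean 108 TPM). So does *CYP51A1* with ENSG00000289027, by 2827 bases (mean 1.55 TPM), and with ENSG00000285772, by 2844 (mean 0.0 TPM). *EBP* overlaps ENSG00000286268 by 644 bases (mean 0.0517 TPM). Among the other pathway genes, *LIPA* overlaps ENSG00000232110 by 135 bases (mean 33.3 TPM) and *NPC1* overlaps *RMC1* by 619 (mean 15.2 TPM), both on the opposite strand. Their values are less certain for that reason. The transcript that overlaps *HMGCS1* had a mean of 0.128 TPM, and no exon of another gene overlapped *MSMO1*, *SC5D*, *SCD* or *ABCA1*.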

How the data were processed

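As their methods say, the authors used fastp, STAR and RSEM for trimming, alignment and quantification, and the deposited values are TPM per gene with 2 decimals. Per the labels, mRNA was selected with poly-T beads. The submitters' processing notes list HISAT2 2.0.5 and hg38 instead of STAR. The methods name GENCODE Release 45, but all 62700 gene identifiers matched Release 44, which gave names and positions. Sequences are from RefSeq.

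Genes whose mean over the 6 libraries reached 1 TPM (14020) were fitted on the log2(TPM + 1) scale with lmFit and eBayes with trend in limma 3.58.1 (R 4.3.3), two-sided, without a replicate block, and with Benjamini–Hochberg adjustment over these genes. A gene was called at an adjusted p under 0.05. Fold changes on this scale understate those of low genes. TPM hold no depth. Tables were made in Python 3.11.15 with pandas 2.3.3.

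The members and lists, and the motifs, were chosen with earlier results of these data known. All 34 members are accounted for. Values per library are given for members that were called or had groups without overlap and for the first and last of each role by fold change, and for some others that were chosen after their values were seen. Other pathway genes are named where called or without overlap, and *NR1H2*, *NR1H3*, *MYLIP*, *ABCG1*, *MBTPS1* and *MBTPS2* were named in addition. Alternatives were other pseudocounts, filters and scalings, arrayWeights, a replicate block, removal of the GC trend by loess (span 0.3) and each library left out. Samples were grouped by title.

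Deviations from the group means of libraries with the same replicate number had correlations across genes of 0.41, 0.0359 and 0.279 for replicates 1, 2 and 3. With the GC trend removed, these correlations were 0.187, 0.0159 and 0.118. No label ties the numbers to a shared culture, so the libraries were not paired.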

Additional observations from a re-analysis of the deposited data

How the results depend on the processing

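The log2 fold change of single members was recomputed in 17 settings, which gave 577 values. Of these, 509 kept their direction and their side of the threshold, 38 passed it in addition, 5 lost it (all *HMGCS1*) and 25 changed sign. The number of genes called, 146, was 13 with no filter, 3218 with arrayWeights, 1176 with the GC trend removed and 12 to 489 with each library left out. The number of members called, 1, was 0 with no filter and 11 with arrayWeights. These 11 were 8 higher and 3 lower, beside 1287 and 1931 of the 14020 genes tested. The number was 5 with the GC trend removed, all higher, where 3.01% of all genes were, and 0 to 4 with each library left out. It was 4 without control replicate 1, all higher, beside 182 genes called higher, and 0 without control replicate 2 or any knockdown replicate. The number of other pathway genes called, 0, was 1 with median-of-ratios scaling and with quantile normalization (*NPC1* in both, higher), beside 136 and 161 genes. It was 8 of 38 with arrayWeights (6 higher and 2 lower), beside 3218 of 14020 genes. With the GC trend removed it was 3 (2 higher and 1 lower), beside 1176. These 8 and 3 are near the shares of all genes, so they are no result about the 38. It was 0 to 2 with each library left out, 2 (both higher) without control replicate 1, beside 489 genes. With the replicate number as a block, 861 genes (311 higher and 550 lower), 6 members (5 higher and *PMVK* lower) and 2 other pathway genes were called. With the block and the GC trend removed, 1062 genes were called (369 higher and 693 lower). Members called were then 6 (5 higher and *PMVK* lower), and other pathway genes 4 (3 higher and *HACD3* lower). A fit with the GC trend removed that also left out control replicate 3 was added after seeing the data. It called 1731 genes (569 higher and 1162 lower), 12 members (11 higher, and *ACLY* lower) and 6 other pathway genes (3 higher and 3 lower). *ABCA1*, which reached the filter only through its knockdown libraries, was among the members called higher in this fit. The same gene was among those called higher with arrayWeights, with the GC trend removed, with the block and with both of these. Of the called genes, 35.6% were higher in the fit reported, 50% with median-of-ratios scaling and 48.4% with quantile normalization, and 30 of 34 members were positive with either scaling.

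Several members changed sign. The regulators' median was −0.0191 with arrayWeights, −0.1059 in the added fit and −0.0397 to 0.1006 with each library left out, and these are also the values of *SREBF2*. The fatty acid median was −0.0164 in the added fit. With arrayWeights *TM7SF2* was −0.0601, *ACACA* −0.103, *FADS1* −0.0275 and *FADS2* −0.0079. In the added fit *FDFT1* was −0.0072, *CYP51A1* −0.0743, *TM7SF2* −0.1565, *ACACA* −0.188, *FADS1* −0.0904, *FADS2* −0.0426 and *ELOVL6* −0.0164. *ACAT2* was 0.0128 with median-of-ratios scaling and 0.1071 with quantile normalization. With each library left out, *ACAT2* ranged from −0.21 to 0.14, *CYP51A1* from −0.15 to 0.64, *TM7SF2* from −0.10 to 0.43, *EBP* from −0.0008 to 0.18, *ACACA* from −0.19 to 0.21, *FADS1* from −0.0599 to 0.22 and *ELOVL6* from −0.0822 to 0.43. The cause of these moves was not tested.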

Other observations

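After the values of *NPC1*, *NPC2* and *LIPA* were seen, 24 other genes of the lysosome or its regulation were listed. They are given here as values with no test over the list. Of the 24, 18 were positive and 6 negative, none was called in limma (5 higher and 2 lower at an unadjusted p under 0.05, or 20.8% and 8.33%, against 7.06% and 9.7% of all genes), and the median log2 fold change was 0.23, or 0.18 without control replicate 3. Groups were apart with the knockdown higher in 6 (*LAMP1*, *CTSA*, *HEXA*, *NEU1*, *PSAP* and *SMPD1*) and lower in 2 (*GUSB* and *ATP6V1H*), or 25.0% and 8.33%, against 9.89% and 13.4% of all genes. *NEU1*, a sialidase, was at 14.8, 20.73 and 25.18 TPM in control and 36.33, 41.64 and 50.62 TPM in knockdown replicates, with a log2 fold change of 1.06 (standard error 0.23, adjusted p = 0.082 from limma). *HEXA*, a hexosaminidase subunit, was at 80.9, 95.84 and 85.88 TPM in control and 124.55, 130.69 and 148.23 TPM in knockdown. Control replicate 3 was not the lowest library for either gene, and it was the lowest of the 6 in 7 of these 24 genes (29.2%), where it was so in 67.6% of the cholesterol and fatty acid genes and 32.2% of all genes tested. *TFEB* and *TFE3*, transcription factors of lysosomal genes that are counted among the 24, were at 0.03 and −0.01 with overlapping groups.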
